A study of Mus musculus with 36 samples.

Results

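TRIM (tripartite motif) proteins are a large family of mostly ubiquitin ligases, and the loci described here are those of the mouse genes named Trim followed by a number. Of the 119751 intervals in the deposited ATAC-seq peak list, 238 overlap 1 of these genes or lie within 5 kb of it, and these 238 peaks were taken as the TRIM-locus peaks. They belong to 58 of the 68 protein-coding genes that match the name. The other 10 have no peak: Trim10, Trim15, Trim38, Trim42, Trim43a, Trim43b, Trim60, Trim61, Trim63 and Trim75. Of the 238 peaks, 173 overlap a gene body and 9 are shared by neighbouring TRIM genes. All 238 passed the filter on low counts, which removed 286 of all peaks. No accessibility value entered the rule. The gene table used here gives genes and starts but no exons, so a peak is placed only inside or outside a gene. For 15 of the 68, among them Trim14, Trim36, Trim55 and Trim65, no start is given, and either end of the gene stands for it.

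The study measured chromatin accessibility in dendritic cells grown from the bone marrow of female C57BL/6 mice, aged 6 to 8 weeks, with GM-CSF and stimulated for 6 h. Its 18 groups had 2 libraries each: an unstimulated control (Ctrl), 6 single ligands, 8 pairs and 3 triplets. As the labels spell them, the single ligands were P for PAM, L for LPS, H for HMW, S for SeV, Z for depleted zymosan and cG for 3',3'-cGAMP. LPS is bacterial lipopolysaccharide and cGAMP a cyclic dinucleotide sensed by STING; the labels do not expand HMW. The pairs were PL, PH, LH, PS, PcG, ScG, ZS and ZcG, and the triplets PLH, PScG and ZScG, each named by the letters of its ligands. The labels name 1 strain and no genetic modification in any group. The labels do not say whether the 2 libraries of a group came from different mice or cultures, so p-values measure the spread between these libraries, which may be technical.

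TRIM proteins share a RING domain, which transfers ubiquitin, with B-box and coiled-coil domains, and differ in their C-terminal domain. Several act in innate immunity: some restrict retroviruses, some ubiquitinate sensors of viral RNA and their adaptors, and others restrain NF-kB signalling. Many of the antiviral members are interferon-induced, through promoter elements such as the interferon-stimulated response element (ISRE), to which factors of the IRF family bind. Those related to Trim5 and Trim30 sit side by side on mouse chromosome 7, in a cluster that has expanded by gene duplication. ATAC-seq reads chromatin that a transposase can enter, so a change in a peak is a change in accessibility and not in transcript.

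The promoters of the antiviral members are shown first, because the start-site peaks that rose most, given below, belong to genes whose windows lack the ISRE letters. The windows come from RefSeq annotation of GRCm38.p6, reach from 250 bases before a start to 50 after it, and exist here for 53 of the 68 genes. As ISRE letters, 2 copies of GAAA with any 2 bases between them were searched on either strand, overlapping matches allowed, and they occur in 3.44% of all 32851 such windows. They occur at 9 of the 53 TRIM genes, 8 of which are among the 15 antiviral-list genes with a window; the ninth is Trim2. The stretches below are printed 5′ to 3′ on the gene's strand, with the ISRE letters in capitals. A match is a description of the letters and not a binding site.
Trim21, chr7:102565453-102565499, minus strand: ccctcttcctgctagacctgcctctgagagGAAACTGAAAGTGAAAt
Trim34a, chr7:104244437-104244486, plus strand: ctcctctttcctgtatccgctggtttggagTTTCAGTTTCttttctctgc
Trim5, chr7:104288116-104288185, minus strand: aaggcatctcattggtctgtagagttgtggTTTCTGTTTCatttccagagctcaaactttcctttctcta
Trim12a, chr7:104315466-104315515, minus strand: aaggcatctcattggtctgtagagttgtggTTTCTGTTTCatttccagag
Trim12c, chr7:104353339-104353408, minus strand: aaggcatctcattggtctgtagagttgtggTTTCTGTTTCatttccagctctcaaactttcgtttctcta
Trim30a, chr7:104465190-104465259, minus strand: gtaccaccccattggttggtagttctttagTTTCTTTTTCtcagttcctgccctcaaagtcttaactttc
Trim30d, chr7:104507851-104507920, minus strand: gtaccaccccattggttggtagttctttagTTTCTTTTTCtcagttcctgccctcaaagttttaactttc
Trim26, chr17:36836956-36837031, plus strand: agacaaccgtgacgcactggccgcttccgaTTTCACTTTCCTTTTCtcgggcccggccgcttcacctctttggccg

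The paralogues of the cluster carry nearly the same letters around the motif. Over the 70 bases with the motif and 30 bases on either side, Trim5 and Trim12a were identical, Trim5 and Trim12c shared 67 of 70 bases and Trim30a and Trim30d 69 of 70. How reads that map equally well to several copies were handled is not given in the sources used here, so counts in near-identical stretches of these paralogues are uncertain.

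Trim30c and Trim56, the antiviral members whose start-site peaks rose most, have no ISRE match in their windows. At Trim30c the stretch that aligns with the Trim30a motif window matches it at 62 of 70 bases (88.6%). Positions are counted from 1 at the 5′ end of the Trim30a window, and T33C is the only one of the 8 substitutions that falls inside the motif, printed in capitals here as at Trim30a.
Trim30c, chr7:104400876-104400945, minus strand: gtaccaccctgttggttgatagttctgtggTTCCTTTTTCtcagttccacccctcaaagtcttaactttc

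The 250 bases before the Trim56 start are printed because the peak there was among the start-site peaks that rose most.
Trim56, chr5:137116208-137116457, minus strand: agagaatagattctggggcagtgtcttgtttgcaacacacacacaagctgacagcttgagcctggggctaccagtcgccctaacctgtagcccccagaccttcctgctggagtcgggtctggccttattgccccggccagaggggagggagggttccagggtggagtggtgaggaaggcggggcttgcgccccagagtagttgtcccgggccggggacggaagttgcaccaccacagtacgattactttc

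Depth ran from 19097027 to 39977088 counts per library. The mitochondrial genome took 44.1% to 63.1% and left 8181254 to 21985891. Over the TRIM-locus peaks the correlation of log2 CPM (CPM, non-mitochondrial counts scaled to library size with TMM factors) of the replicates ran from 0.931 to 0.971 by group. Control, Z, ScG, ZcG and ZScG had mean mitochondrial shares of 58.3% to 63.0% and the other 13 groups 44.4% to 54.5%, so for those 13 groups the difference from control cannot be told apart from the difference in this share. Comparisons among the 13 groups, and of Z, ScG, ZcG and ZScG with control, do not cross it. ZS is 1 of the 13 by its mean, but its libraries had 58.1% and 51.0%, and ScG replicate 1 had 57.3%. Scaling by total counts in place of TMM moved the median log2 fold change of all peaks against control by -0.057 (ZcG) to 0.423 (L). Markers of the labelled cell type were accessible in control, where 99 peaks at 10 of 10 dendritic genes summed to 567 to 572 CPM. Peaks at markers of other cells summed, over all libraries, to 54.1 to 70.9 CPM for B cells, 20.3 to 33.5 for T cells (no peak at Cd8a), 20.2 to 34.8 for neutrophils, 40.1 to 57.9 for erythroid cells (none at Gata1) and 19.8 to 32.0 for fibroblasts, and their part in the results was not tested. Macrophage markers, which share the lineage, summed to 193 to 287 CPM. The sums cover unequal numbers of peaks: 37 for macrophages, 15 for B cells, 7 for T cells, 10 for neutrophils, 5 for erythroid cells and 10 for fibroblasts. They therefore do not rank the cell types.

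Each stimulation was first compared with control to ask which TRIM loci opened or closed. A peak was called at an adjusted p-value under 0.05 in edgeR's quasi-likelihood test, with Benjamini-Hochberg adjustment over all 119464 tested peaks. TRIM-locus peaks were called about as often as peaks in general, and 76 of the 238 were called in no stimulation. The number never called was not counted over all tested peaks. P called 11 of 238 higher (11.1% of all tested peaks were) and 34 lower (9.45%). For L the counts were 29 higher (all peaks 11.2%) and 29 lower (11.1%), and for H 16 higher (5.21%) and 21 lower (5.46%). S called 31 higher (14.1% of all peaks) and 32 lower (13.8%), and cG 28 higher (11.6%) and 32 lower (11.6%). Z called the fewest, 9 higher (4.16%) and 4 lower (1.75%). The median log2 fold change of the members was -0.204 in P, against -0.039 for all peaks, and 0.071 in S, against 0.004. A higher value can come from more cells with the site open or from a more open site in each cell, and these cannot be told apart here. These 17 comparisons share the same 2 control libraries.

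Scaling by total counts turned the balance of the singles in the low-mitochondrial groups, giving 28 higher and 7 lower TRIM-locus peaks in P, 75 and 6 in L, 26 and 3 in H, 68 and 10 in S and 60 and 10 in cG. In these groups the number of lower calls at the TRIM loci therefore depends on the scaling. In Z, where control and stimulated libraries have like mitochondrial shares, total counts gave 8 and 4. ScG, ZcG and ZScG, also like control in this share, had 29, 25 and 38 lower calls with TMM. With total counts they had 22, 27 and 33.

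Among the combinations, the called TRIM-locus peaks in either direction numbered 64 in PL (all peaks 27.3%), 63 in PH (26.3%), 58 in LH (21.8%), 73 in PS (33.4%) and 84 in PcG (32.9%). ZS called 60 (28.3%), PLH 71 (29.7%) and PScG 90 (37.1%). ScG called 27 higher (14.4%) and 29 lower (13.3%), ZcG 23 higher (11.4%) and 25 lower (10.2%), and ZScG 36 higher (16.2%) and 38 lower (16.1%). As shares of the 238 members these run from 20.2% in ZcG to 37.8% in PScG, within 5 percentage points of all peaks in each combination.

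**Figure D1:**
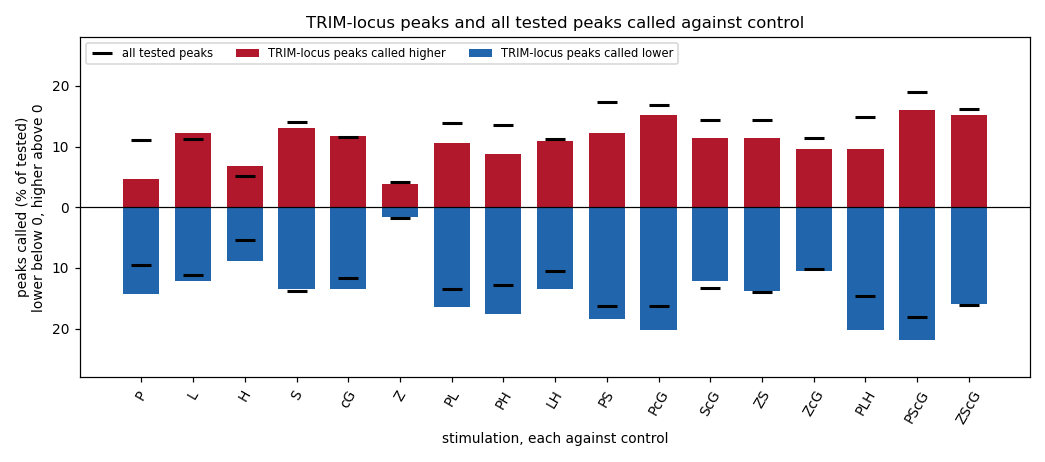
Share of the 238 TRIM-locus peaks called higher (above 0) or lower (below 0) than control for each of the 17 stimulations, in percent of peaks, with black dashes for the share of all 119464 tested peaks. Z called the smallest share and PScG the largest. In P the members had fewer higher calls (4.62% against 11.1%) and more lower calls (14.3% against 9.45%) than all peaks.

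Because control differs from most groups in its mitochondrial share, the ligands were also compared with P, without control libraries. TRIM-locus peaks were then more often higher than lower. L called 35 of 238 higher than P (all peaks 5.19%) and 5 lower (5.87%), and H 17 higher (4.96%) and 7 lower (7.18%). S called 47 higher (11.6%) and 15 lower (12.9%), and cG 48 higher (11.1%) and 21 lower (12.7%). Adding a ligand to P also gave more higher than lower calls. PL called 25 higher than P (4.17%) and 6 lower (4.29%), PH 9 higher (1.7%) and 4 lower (0.968%), PS 28 higher (9.36%) and 16 lower (8.78%) and PcG 30 higher (7.39%) and 16 lower (7.35%). These 8 comparisons share the 2 P libraries. Without P replicate 2 the higher calls were 15 in L, 24 in S, 31 in cG, 10 in PL, 1 in PH, 14 in PS and 13 in PcG, and without H replicate 2 they were 6 in H. Under total-count scaling the calls were 41 higher and 4 lower for L, 50 and 15 for S and 48 and 20 for cG.

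S and cG were also compared with each other. Of 238 members, 1 was called (all peaks 0.949%), and 20 had an unadjusted p under 0.05 in edgeR. The called member is a peak inside Trim66, a PHD-bromodomain gene, with 13.2 and 16.0 CPM in S and 6.68 and 8.10 in cG. Both S libraries lay above both cG libraries, a log2 difference of 0.98 ± 0.18 (SE; adjusted p = 0.000146).

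The 17 genes on the antiviral and interferon-linked list held 18 of the 29 higher calls in L, 13 of 16 in H, 20 of 31 in S and 15 of 28 in cG. Of their 71 peaks, at 16 of the genes since Trim38 has none, L called 18 higher and 1 lower, H 13 and 0, S 20 and 2, cG 15 and 2, and Z 5 and 0. In P, 5 were called higher and 11 lower. Of all tested peaks, 11.1% were higher and 9.45% lower in P, 11.2% and 11.1% in L and 5.21% and 5.46% in H. The shares were 14.1% and 13.8% in S, 11.6% and 11.6% in cG and 4.16% and 1.75% in Z. The median log2 fold change of the 71 peaks was 0.63 in L, 0.31 in H, 0.45 in S, 0.35 in cG and 0.16 in Z, against 0.029, 0.02, 0.004, 0.005 and 0.001 for all peaks. In P it was -0.20 and turned to 0.13 under total-count scaling, which gave 8 higher and 4 lower there. Without control replicate 2 the higher calls were 12 in L, 5 in H, 11 in S, 10 in cG and 3 in Z.

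Against P, the antiviral list had more higher than lower calls in each comparison. Of its 71 peaks, 26 were higher and 0 lower in L (all peaks 5.19% and 5.87%) and 13 and 1 in H (4.96% and 7.18%). S had 30 and 2 (11.6% and 12.9%) and cG 28 and 3 (11.1% and 12.7%). The median log2 differences in L, H, S and cG were 0.62, 0.33, 0.51 and 0.55. PL had 23 higher and 0 lower (4.17% and 4.29%) and PH 9 and 0 (1.7% and 0.968%). PS had 19 and 2 (9.36% and 8.78%) and PcG 24 and 0 (7.39% and 7.35%). Total-count scaling kept each balance, at 28 and 0 for L, 30 and 2 for S, 28 and 3 for cG, 21 and 0 for PL and 29 and 0 for PcG. The counts rest in part on 1 library. Without P replicate 2 they were 12 higher for L, 13 for S, 19 for cG, 8 for PL, 1 for PH, 7 for PS and 9 for PcG, and without H replicate 2 they were 5 for H.

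**Figure D2:**
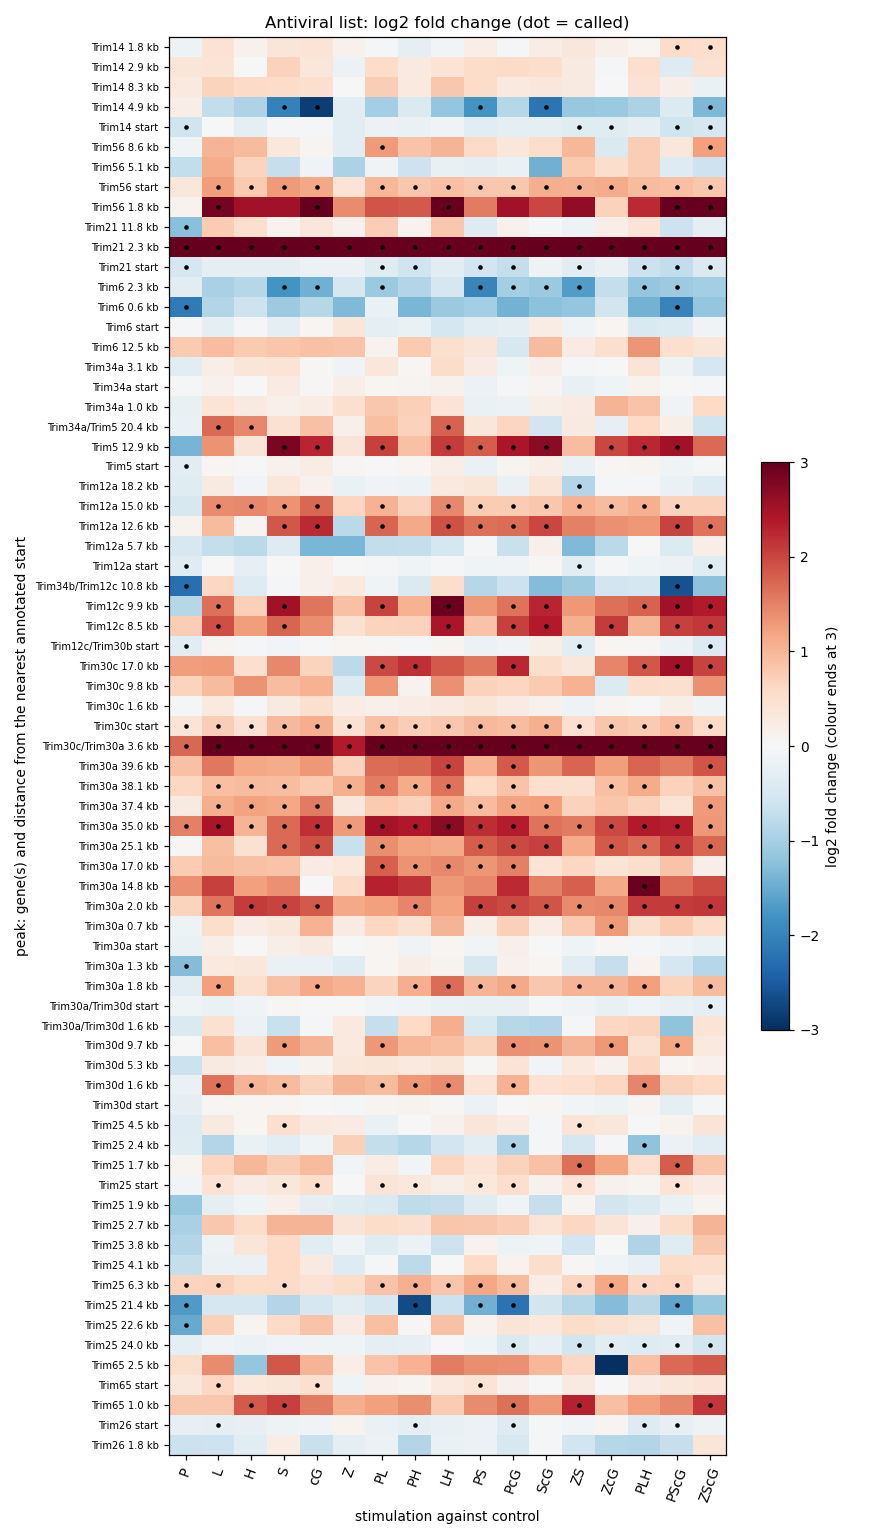
Fitted log2 fold change against control of the 71 antiviral-list peaks (rows) in the 17 stimulations (columns), with a dot where a peak was called and the colour scale ending at -3 and 3. Peaks at Trim30c, Trim30a and Trim21 were called higher in all 17 columns, while most start-site peaks stayed near 0.

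A peak between Trim30c and Trim30a rose in all 17 stimulations. It lies at chr7:104404365-104405192 (828 bp), 3587 bp upstream of the annotated Trim30c start and outside both gene bodies. Trim30a is reported to restrain NF-kB signalling downstream of Toll-like receptors. The peak had 0 and 0.579 CPM in control (0 and 6 counts), 8.70 and 8.73 in S and 9.63 and 9.39 in cG. L libraries were at 3.74 and 5.23 CPM, H at 4.19 and 4.65, Z at 1.84 and 1.47 and P at 1.45 and 0.65. Every stimulated library lay above both control libraries, and S and cG lay above all other single ligands.

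On the log2 scale that peak rose by 4.91 ± 0.44 (SE) in cG (adjusted p = 3.19e-20), 4.79 ± 0.44 in S, 3.84 ± 0.48 in L, 3.80 ± 0.48 in H, 2.38 ± 0.61 in Z (adjusted p = 0.00574) and 1.73 ± 0.63 in P (adjusted p = 0.0341). The fitted sizes rest on 6 control counts, and the cG value ran from 4.02 to 9.97 as single libraries were left out. The Z call was lost without control replicate 1 (1.48) or Z replicate 1 (2.23), and the P call without control replicate 1 (0.84) or P replicate 1 (1.06). Against P, with no control library, the same peak was higher by 3.18 ± 0.32 in cG, 3.05 ± 0.32 in S, 2.11 ± 0.34 in L and 2.07 ± 0.35 in H. It was also higher than in P when a second ligand was added, by 2.60 ± 0.34 in PL, 1.93 ± 0.35 in PH, 2.2 ± 0.34 in PS and 2.30 ± 0.34 in PcG. PS and PcG libraries, at 4.59 to 5.66 CPM, lay below those of S and cG alone.

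The neighbouring start-site peak of Trim30c, at chr7:104400317-104401955, was already open in control, at 25.7 and 24.3 CPM. It reached 54.4 and 44.5 CPM in S, 52.1 and 54.2 in cG, 42.3 and 41.3 in L, 33.5 and 35 in H, 30.3 and 37.5 in Z and 32.0 and 33.4 in P. All stimulated libraries exceeded both control libraries, and the peak was called higher in all 17 stimulations under each of the 3 scalings. The log2 rise was 1.09 ± 0.11 (SE) in cG (adjusted p = 1.12e-15), 0.98 ± 0.11 in S, 0.74 ± 0.11 in L, 0.45 ± 0.12 in H, 0.45 ± 0.12 in Z and 0.39 ± 0.12 in P. Without control replicate 2 the calls in P, H and Z were lost, and those in P and Z were also lost without the second library of that stimulation.

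Trim30a, with 15 peaks, had the most of any TRIM gene, and 11 of them were called higher in at least 1 stimulation and 2 lower. Its peak at chr7:104410484-104411127, inside the gene and 34998 bp from the nearest start, had 2.51 CPM in both control libraries, 14.6 and 13.2 in L, 11.5 and 11.3 in cG, 7.52 and 8.98 in S, 8.39 and 5.92 in P, 6.69 and 5.56 in Z and 4.45 and 5.86 in H. Here L, and not S or cG, gave the highest single-ligand values, and no stimulated library overlapped control. The log2 rise was 2.46 ± 0.24 (SE) in L, 2.18 ± 0.25 in cG, 1.71 ± 0.25 in S, 1.5 ± 0.26 in P, 1.27 ± 0.28 in Z and 1.02 ± 0.27 in H (adjusted p = 0.00622). Relative to P, L was higher by 0.95 ± 0.19 (adjusted p = 0.000101), whereas H at -0.49 ± 0.22 (adjusted p = 0.137) and S at 0.21 ± 0.20 (adjusted p = 0.496) did not pass. Without P replicate 2 the difference between L and P was 0.71 and not called, and the H call against control was lost without either control library (1.02 each) or H replicate 2 (0.82). Trim30a has 2 annotated starts, and the windows of both carry the ISRE letters. The peak at the start whose window is printed above had 55.4 and 53.5 CPM in control, 55.5 in both S libraries and 58.6 and 50.1 in cG. No single ligand was called there with TMM. With total counts the peak at the other start was called higher in L (0.62), S (0.53) and cG (0.60).

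**Figure D3:**
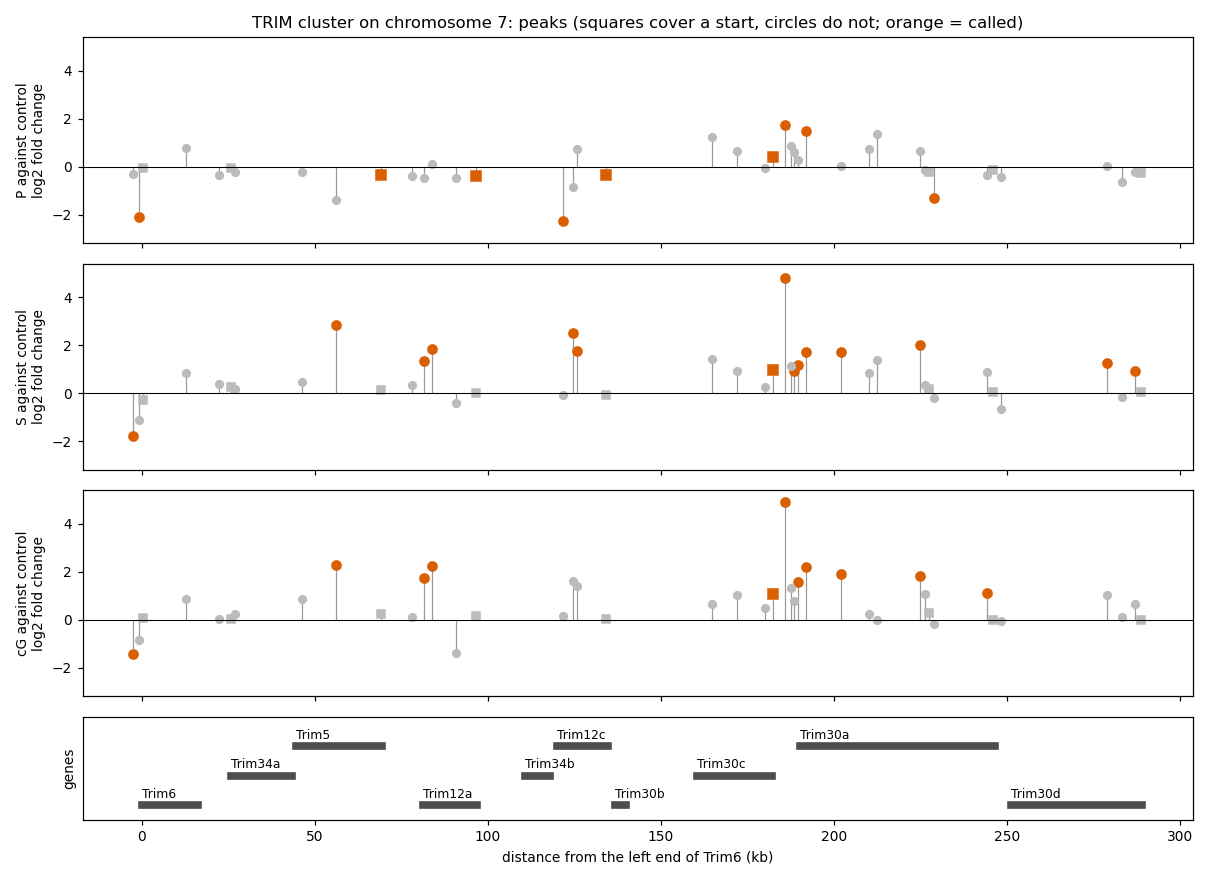
Log2 fold change against control of the peaks in the chromosome 7 TRIM cluster by distance in kb from the left end of Trim6, for P, S and cG, with orange for called peaks, squares for peaks that cover an annotated start and the genes drawn below. S and cG raised the same stretch around Trim30c and Trim30a, where the peak 3587 bp from the Trim30c start reached 4.79 and 4.91, while the squares lay near 0 except at Trim30c.

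Trim21, a cytosolic antibody receptor that directs antibody-bound virus to degradation, had 1 peak that went from almost closed to open in every stimulation. It lies inside the gene at chr7:102562670-102563212, 2270 bp from the start, and held 1 count in the 2 control libraries together (0.109 and 0 CPM). P libraries were at 3.28 and 3.83 CPM, L at 2.76 and 2.37, S at 2.68 and 2.03, H at 1.46 and 1.21, cG at 1.03 and 1.07 and Z at 1.18 and 0.525. PS was highest, at 5.4 and 3.96. No stimulated library came down to control, and P, not S or cG, was the highest single ligand.

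Because control held 1 count, the Trim21 peak is given as a ratio to control with its 95% interval for counting error: 69.5 in P (12.2 to 2770), 49.5 in L (8.65 to 1980), 45.8 in S (7.97 to 1830), 26.4 in H (4.45 to 1070), 20.6 in cG (3.41 to 843) and 15.9 in Z (2.42 to 674). It was called in all 17 stimulations, with an adjusted p of 4.31e-11 in P and 0.0116 in Z, the Z call being lost without control replicate 2 or Z replicate 1. Between stimulations the log2 difference from P was -1.74 ± 0.41 (SE) in cG (adjusted p = 0.000383) and -1.40 ± 0.39 in H (adjusted p = 0.00743), which was lost without P replicate 2 (-1.29), H replicate 1 (-1.55) or H replicate 2 (-1.28). The start-site peak of Trim21, with 33.3 and 29.0 CPM in control, was called lower in P alone among single ligands, at -0.50 ± 0.13 (adjusted p = 0.00271), a call lost under total-count scaling and without control replicate 1 (-0.39) or P replicate 2 (-0.45).

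**Figure D4:**
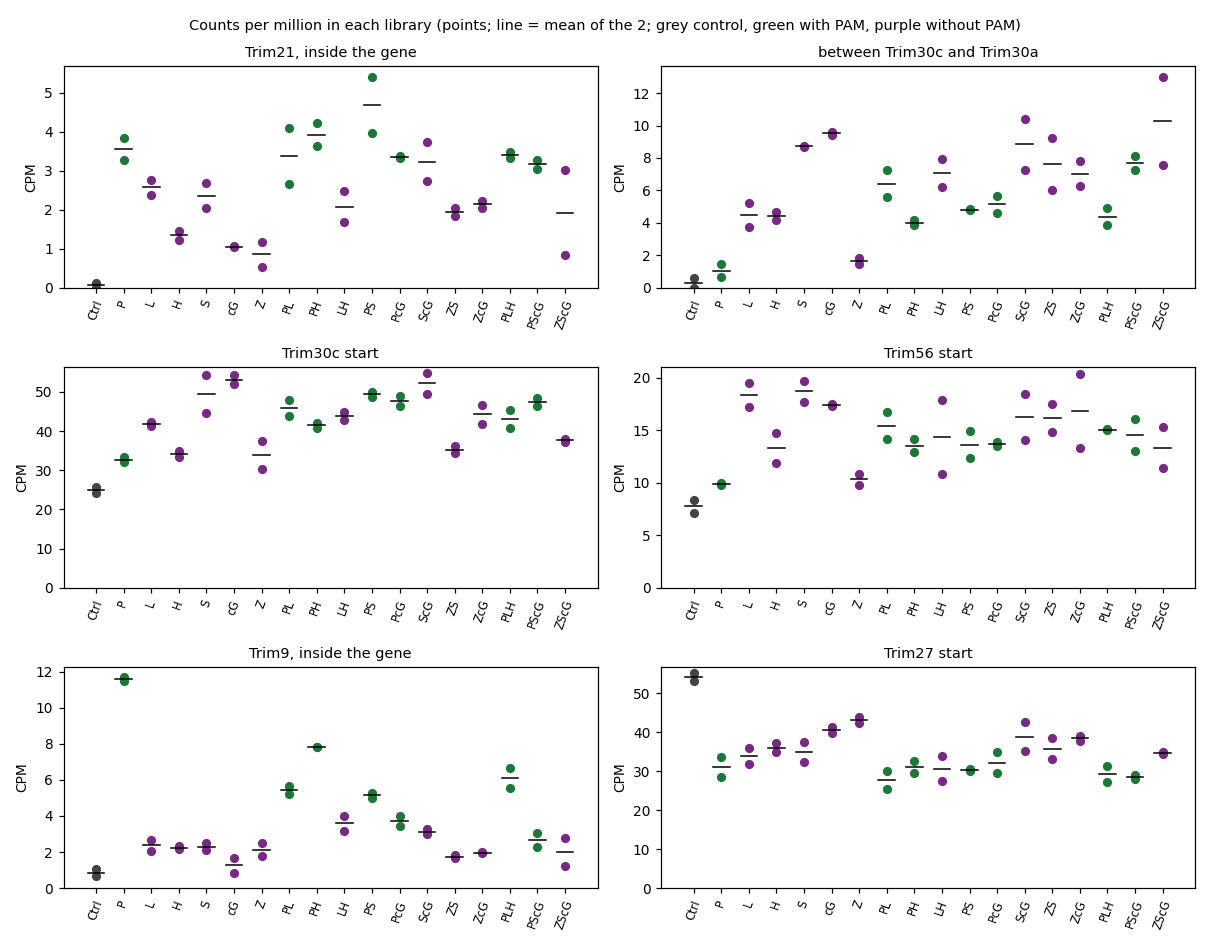
CPM of 6 TRIM-locus peaks in each of the 36 libraries, with a line at the mean of the 2 libraries of a group, grey for control, green for stimulations with PAM and purple for those without. Among the single ligands, P was highest at the Trim21 and Trim9 peaks inside the genes, at 3.28 to 3.83 and 11.5 to 11.7 CPM. The peaks at Trim30c and Trim56 were highest in L, S or cG. Groups with P were not all above those without: at the Trim21 peak the ratio to control was 63.7 in ScG and 62.0 in PScG.

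Trim56, a ubiquitin ligase linked to the cytosolic nucleic acid sensing pathways, opened at its start in L, S and cG. The peak at chr5:137115603-137116737 had 8.41 and 7.14 CPM in control, 17.2 and 19.5 in L, 19.7 and 17.7 in S, 17.3 and 17.5 in cG, 14.7 and 11.9 in H, 9.84 and 10.8 in Z and 9.99 and 9.75 in P. All single-ligand libraries were above control, those of P and Z by the least. The log2 rise was 1.27 ± 0.18 (SE) in S (adjusted p = 4.2e-09), 1.25 ± 0.18 in L, 1.17 ± 0.19 in cG and 0.79 ± 0.19 in H, while P (0.35 ± 0.20, adjusted p = 0.218) and Z (0.42 ± 0.21, adjusted p = 0.255) did not pass. The H call was lost without control replicate 2 (0.67) or H replicate 1 (0.62). L, S and cG were also higher than P, by 0.90 ± 0.17, 0.92 ± 0.17 and 0.82 ± 0.17.

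The starts of Trim25 and Trim65, ubiquitin ligases of the RNA sensing pathway, had smaller log2 values than that of Trim56 in L, S and cG. At the Trim25 start (chr11:88998149-89001187, which also covers the start of Gm11496) control had 28.3 and 22.6 CPM, L 31.7 and 36.7 and cG 38.9 and 34.6, and the libraries did not overlap. The log2 rise was 0.53 ± 0.12 (SE) in cG (adjusted p = 0.000347), 0.43 ± 0.12 in L and 0.35 ± 0.12 in S, and all 3 calls were lost without control replicate 2 (0.38, 0.28 and 0.19). L was also lost without L replicate 2 (0.32), and S without S replicate 1 (0.32) or 2 (0.37). The Trim65 start rose from 15.1 and 15.3 CPM in control to 23.2 and 23.3 in L (0.61 ± 0.15, adjusted p = 0.000887) and 19.5 and 22.7 in cG (0.47 ± 0.15, adjusted p = 0.0149). The cG call was lost without control replicate 1 (0.46), control replicate 2 (0.49) or cG replicate 2 (0.36). A weak peak 1016 bp outside Trim65, also near Mrpl38, had 0.328 and 0.579 CPM in control and 1.90 and 1.97 in S, a log2 rise of 2.05 ± 0.61 (adjusted p = 0.00597) that was lost without control replicate 1 (1.72). Inside Trim25, the peak 6318 bp from the start was called higher in 13 of 17 stimulations, with 8.30 and 8.01 CPM in control and 12.9 and 13 in P (0.67 ± 0.19, adjusted p = 0.00563), a call lost without control replicate 2 (0.64).

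Trim5, Trim12a and Trim12c, the mouse relatives of the primate retroviral restriction factor TRIM5, had called peaks inside the genes that rose. Their starts moved with the scaling: with TMM none of the 3 was called higher in a single ligand, and with total counts they were called higher in L (0.50, 0.44 and 0.50), S (0.49, 0.39 and 0.28) and cG (0.57, 0.50 and 0.36). A weak peak inside Trim5, at chr7:104274879-104275190 and 12916 bp from the start, had 0.328 and 0.289 CPM in control (3 counts each), 0.0763 and 0.144 in P, 2.29 and 2.21 in S and 1.27 and 1.79 in cG. The S and cG libraries lay above control and P. Against control the log2 rise was 2.83 ± 0.66 (SE) in S (adjusted p = 0.000291) and 2.29 ± 0.69 in cG, the cG call being lost without control replicate 1 (2.37), control replicate 2 (2.2) or cG replicate 2 (2.02), and against P it was 4.23 ± 0.73 in S (adjusted p = 8.29e-07), 3.68 ± 0.77 in cG, 3.22 ± 0.78 in PS and 3.84 ± 0.74 in PcG. PL was higher than P by 3.45 ± 0.79, a call lost without PL replicate 1 (2.94).

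Inside Trim12a, the peak at chr7:104299886-104300502 had 2.19 and 4.63 CPM in control, 3.05 and 1.88 in P, 9.26 and 9.33 in L, 8.83 and 8.80 in S and 12.1 and 10.9 in cG. P overlapped control and the other 3 did not. Relative to P it was higher by 2.22 ± 0.26 (SE) in cG (adjusted p = 6.81e-13), 1.93 ± 0.27 in H, 1.92 ± 0.26 in L and 1.84 ± 0.26 in S. At the Trim12a start, which also covers the start of Gm15133, no single ligand other than P was called.

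With TMM scaling, P had lower calls at a few peaks of the same cluster and at the Trim14 start, which lies on chromosome 4. A peak shared by the Trim12c and Trim34b loci, at chr7:104340294-104340710, had 2.19 and 1.83 CPM in control and 0.381 and 0.433 in P, with no overlap, and L was at 2.54 and 3.61. The log2 change in P was -2.27 ± 0.59 (SE; adjusted p = 0.00173), and L was higher than P by 2.90 ± 0.54 (adjusted p = 1.97e-05). The start-site peaks of Trim14 (-0.60 ± 0.14), Trim12a (-0.37 ± 0.10), Trim5 (-0.35 ± 0.12) and of Trim12c with Trim30b (-0.33 ± 0.11) were also called lower in P by edgeR, and total-count scaling left Trim14 at -0.28, Trim12a at -0.04 and Trim5 at -0.02, with none of the 4 called. The Trim5 and Trim12c calls were also lost without control replicate 1 (-0.17 and -0.29) or P replicate 2 (-0.22 and -0.28), and the Trim12a call without P replicate 2 (-0.26).

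Trim14, an adaptor of mitochondrial antiviral signalling, has 5 peaks, of which 1 was called in S and cG, and it was lower. This peak, at chr4:46530872-46531244, lies inside the gene and 4906 bp from the gene end that the start-site peak covers. It had 2.51 and 3.47 CPM in control and 2.90 and 4.04 in P, but 0.916 and 0.554 in S and 0.398 and 0.430 in cG. S and cG libraries lay below all control and P libraries. The log2 change was -2.83 ± 0.56 (SE) in cG (adjusted p = 2.6e-05) and -2.02 ± 0.50 in S (adjusted p = 0.000732). Near the opposite end of Trim14, the peak 1763 bp from that end had values of 0.37 in S and 0.42 in cG. The one 2861 bp from that end had 0.70 and 0.33, and none of these passed. The start-site peaks of Trim6, Trim30a (at the start whose window is printed above), Trim30d and Trim34a were called in no single ligand with TMM. With total counts S was called higher at that Trim30a start (0.39), Trim30d (0.43) and Trim34a (0.60), and the Trim6 start stayed uncalled in all 6. At the Trim26 start, L was called lower at -0.27 ± 0.10 (adjusted p = 0.0494), but total-count scaling turned it to 0.16.

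Start-site peaks were the most open TRIM-locus peaks in control. The 47 peaks at a gene start (for 38 of them a start in the promoter table, for the others an end of the gene) had a control median of 26.4 CPM, or 16.6 CPM per kb. The 83 peaks within 5 kb of a start had 2.17 CPM (5.41 per kb) and the 108 farther away 2.12 CPM (4.9 per kb). Of the 47 start-site peaks, P called 1 higher and 19 lower, L 5 and 14, H 3 and 10, S 4 and 16, cG 7 and 12 and Z 2 and 1. Start-site peaks in general also had more lower than higher calls in these ligands except Z: of 10677 tested peaks over any start in the promoter table, 3.8% were higher and 25.1% lower in P, 7.17% and 24.9% in L, 2.32% and 17.1% in H, 8.53% and 20.9% in S, 11.2% and 15.4% in cG and 1.85% and 1.76% in Z. Among the 46 TRIM-locus peaks counted that way, the lower share was 41.3% in P, 30.4% in L, 21.7% in H, 26.1% in S and cG and 0% in Z. The higher ones were mostly antiviral: 4 of 5 in L, 3 of 4 in S and 4 of 7 in cG. The antiviral list holds 71 of the 238 members. Outside the antiviral list S called 1 start higher and 16 lower, and on it 3 higher and 0 lower. The other ligands were not all alike in this. P called the antiviral-list starts of Trim14, Trim21, Trim5, Trim12a and Trim12c lower and that of Trim30c higher, and L called the Trim26 start lower.

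The lower start-site calls depended on the scaling in the groups whose mitochondrial share differs from control. With total counts the 47 starts gave 3 higher and 2 lower in P, 17 and 3 in L, 5 and 1 in H, 15 and 2 in S and 14 and 1 in cG. In the groups whose share is like that of control they did not: ScG had 3 higher and 10 lower with TMM and 3 and 7 with total counts, ZcG 3 and 8 against 2 and 9, and ZScG 4 and 16 against 5 and 13. Leaving out 1 library lowered the lower calls by more than 1.5 times in each of these 8 groups. At the lowest there were 11 in P without P replicate 2, 5 in H without H replicate 2 and 3 in ZcG without ZcG replicate 2. Without control replicate 1 there were 9 in L, 10 in S, 7 in cG, 4 in ScG and 8 in ZScG, and without control replicate 2 the higher calls were 3 in cG and 1 in H.

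**Figure D5:**
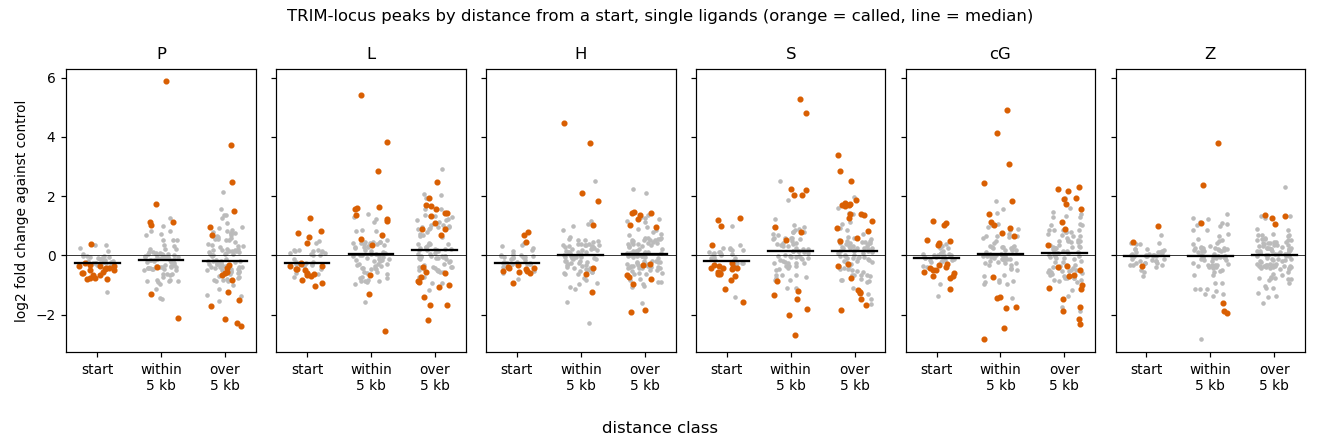
Log2 fold change against control of the 238 TRIM-locus peaks for the 6 single ligands, by position: at a gene start, within 5 kb of one, or farther away, with orange for called peaks and a line at each median. Start-site peaks spread little and lie mostly at or below 0 in P, L, H, S and cG, where 10 to 19 of 47 were called lower, and peaks away from starts reach the largest changes in both directions.

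Among the start-site peaks that were called lower, that of Trim27, a restrainer of NF-kB and interferon signalling, lay lowest against control in P. The peak at chr13:21179398-21181418 had 55.2 and 53.0 CPM in control, 33.7 and 28.4 in P, 31.8 and 35.8 in L, 34.8 and 37.1 in H, 37.5 and 32.4 in S, 41.4 and 39.8 in cG and 43.8 and 42.2 in Z. No stimulated library overlapped control. The log2 change was -0.80 ± 0.12 (SE) in P (adjusted p = 4.93e-09), -0.67 in L, -0.63 in S, -0.59 in H and -0.41 in cG (adjusted p = 0.0033), while Z at -0.33 did not pass (adjusted p = 0.0713). With total counts P was still called, at -0.47, but L (-0.25), S (-0.27), H (-0.31) and cG (-0.07) were not.

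Trim24, a PHD-bromodomain co-regulator of transcription, had a start-site peak at chr6:37870183-37871965 with 110 and 97.6 CPM in control and 65.5 and 69.3 in L, without overlap. Its log2 change in L was -0.62 (adjusted p = 1.37e-08), and -0.19 and not called with total counts. The start of Trim32, an NHL-repeat ubiquitin ligase whose gene lies inside Astn2, had 32.1 and 25.7 CPM in control and 16.3 and 15.6 in S, a log2 change of -0.85 that stayed called with total counts. Of 17 stimulations, Trim27 and Trim68 starts were called lower in 16, Trim24 and Trim32 in 15, and with total counts in 12, 12, 6 and 10. Trim45 fell at its start from 127 and 119 CPM by 0.50 in L on the log2 scale, which became -0.07 and not called with total counts.

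Trim9, better known from neurons and also linked to restraint of NF-kB, had the peak most tied to P. It lies inside the gene at chr12:70300601-70301203, 46411 bp from the start. Control had 0.656 and 1.06 CPM and P 11.5 and 11.7, while L had 2.68 and 2.05, S 2.09 and 2.52, H 2.16 and 2.33, Z 2.49 and 1.78 and cG 1.67 and 0.86. P stood above every other group, and cG overlapped control. The log2 rise was 3.73 ± 0.37 (SE) in P (adjusted p = 4.93e-17) and 1.42 ± 0.43 in L, with cG at 0.52 (adjusted p = 0.474) and Z at 1.27 (adjusted p = 0.0882). The L call was lost without control replicate 1 (1.14) or L replicate 1 (1.23).

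The other ligands lowered that Trim9 peak when added to P. PH libraries had 7.83 and 7.81 CPM, PL 5.67 and 5.20, PS 5.27 and 5.01, PcG 3.98 and 3.44 and PScG 3.05 and 2.28, all below both P libraries. The log2 difference from P was -1.64 ± 0.28 (SE) in PcG (adjusted p = 1.34e-06), -1.18 ± 0.27 in PS and -1.09 ± 0.28 in PL (-1.02 and not called without PL replicate 2), and PH at -0.57 ± 0.26 did not pass (adjusted p = 0.271). Against P alone, cG was lower at -3.21 ± 0.33 and H at -2.37 ± 0.30. A second peak inside Trim9 went the other way, from 5.68 and 4.34 CPM in control to 1.5 and 1.23 in S, a log2 change of -1.86.

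The other lists had mostly more lower than higher calls with TMM scaling. Of all tested peaks, 11.1% were higher and 9.45% lower in P, 11.2% and 11.1% in L and 14.1% and 13.8% in S. For cG the shares were 11.6% and 11.6%, and for Z 4.16% and 1.75%. The 33 inflammatory-list peaks had 2 higher and 6 lower in P, 1 and 7 in L, 1 and 7 in S and 1 and 6 in cG. The 18 peaks of the nuclear PHD-bromodomain genes (Trim24, Trim28, Trim33, Trim66) had 0 higher and 5 lower in P, 1 and 5 in L and 2 and 6 in S. NHL-repeat genes (Trim2, Trim3, Trim32, Trim71; 25 peaks) had 0 higher and 6 lower in L and 0 and 5 in cG, and 2 higher and 0 lower in Z. The genes on no list had 9 higher and 9 lower in L, 7 and 14 in S and 10 and 14 in cG. Total counts turned most of these balances, to 5 higher and 1 lower in P and L and 4 and 2 in S for the inflammatory list, 2 and 0 in P, 1 and 1 in L and 2 and 2 in S for the nuclear genes, 0 and 2 in L for the NHL-repeat genes, and 27 and 1 in L, 20 and 3 in S and 19 and 5 in cG for the genes on no list. Without control replicate 1 the nuclear genes had 2 lower in P, 3 in L and 2 in S, the NHL-repeat genes 3 lower in cG and 0 higher in Z, and the genes on no list 3 higher in L and 4 in S. The lower calls of the genes on no list were 4 in L and 7 in S without control replicate 2, and 7 in cG without cG replicate 2, and their higher calls in cG were 5 without cG replicate 1. The 9 muscle-list peaks had 1 higher and 1 lower in cG, and the 1 germline-list peak, at Trim43c with 0.983 and 0.579 CPM in control, was called in no stimulation.

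Single peaks of these genes opened. A peak 2838 bp from the Trim41 start had 0.656 and 1.16 CPM in control, 5.89 and 4.30 in cG and 5.17 and 3.44 in S, log2 rises of 2.45 and 2.21 with no overlap. Inside Trim33, a nuclear co-regulator of SMAD signalling, a peak went from 2.29 and 1.35 CPM to 6.29 and 7.09 in cG (1.89), and at Trim37 one went from 2.95 and 3.28 to 10.3 and 9.66 in S (1.68). The Trim69 start rose from 3.82 and 7.24 CPM to 14.1 and 11.6 in S (1.19). Trim36 was the gene with most closing peaks, 9 of 13 being lower in at least 1 stimulation. Trim36 has no annotated start here. Its peak 13839 bp from the nearer end of the gene had 30.8 and 27.1 CPM in control and 13.4 and 12.1 in S, a log2 change of -1.18. This peak was called lower in 16 of 17 stimulations, or 15 with total counts.

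Depleted zymosan gave the highest single-ligand values at a pair of peaks. Z and control have like mitochondrial shares, but the other single ligands have lower ones, and Z was not tested against them. The Trim66 peak that separated S from cG, at chr7:109456382-109457237 and 50897 bp from the start, had 9.72 and 11 CPM in control and 29.4 and 23.6 in Z, above every other single-ligand library (6.68 to 16.5). Its log2 rise in Z was 1.35 ± 0.18 (SE; adjusted p = 1.3e-09). A peak inside Trim3, an NHL-repeat gene best known from neurons, had 2.84 and 3.86 CPM in control, 8.40 and 8.50 in Z and 1.72 to 4.92 in the other single ligands, a rise of 1.33 ± 0.33 (adjusted p = 0.00386). Without control replicate 1 the Trim3 value was 1.13 and not called. With total counts the same peaks had rises of 1.31 and 1.29 in Z and both were called. Under that scaling the Trim66 peak was called higher in 14 of 17 stimulations and the Trim3 peak in 1.

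For each pair, the interaction tested additivity of its 2 ligands on the log2 scale (AB - A - B + Ctrl). Called TRIM-locus peaks numbered 16 for LH (all peaks 4.88%), 13 for PL (6.75%), 11 for ZS (3.43%), 8 for ZcG (2.49%), 7 for PcG (3.27%), 7 for PS (4.59%) and 5 for PH (1.55%). ScG had 21 above additivity (6.92% of all peaks) and 30 below (7.52%), and its 71 antiviral-list peaks had 2 above and 18 below, with a median of -0.69. Leaving out single libraries gave 10 to 16 antiviral peaks below. ScG and control have a high mitochondrial share and S and cG a low one, and the other interactions except ZS also carry a difference between high-share and low-share groups. ZS is not free of such a difference, since its libraries had shares of 58.1% and 51.0%. With total counts the split of ScG was 4 above and 72 below, with 0 and 40 on the antiviral list. The other splits, above and below, moved from 9 and 4 to 0 and 26 in PL, 3 and 2 to 0 and 3 in PH, 9 and 7 to 0 and 28 in LH, 3 and 4 to 0 and 12 in PS, 2 and 5 to 0 and 12 in PcG, 2 and 9 to 1 and 13 in ZS and 2 and 6 to 0 and 23 in ZcG. The median interaction of all peaks moved with that scaling too, by -0.626 in ScG and by -0.138 in ZS to -0.43 in PL in the others. All 8 interactions share the control libraries.

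Pairs below additivity near Trim30c are given here beside the levels of their single ligands. At the peak between Trim30c and Trim30a, ScG libraries had 7.26 and 10.4 CPM against 8.70 to 9.63 in S and cG alone, and the interaction was -4.90 ± 0.53 (SE; adjusted p = 2.98e-14; -9.96 to -4.01 as single libraries were left out). LH had 6.19 and 7.93 CPM, above every L and H library (3.74 to 5.23), and an interaction of -3.17 ± 0.59 (adjusted p = 5.96e-05). At the Trim30c start, ZS libraries (34.3 and 36.2 CPM) lay below both S libraries (54.4 and 44.5), with an interaction of -0.93 ± 0.16 (adjusted p = 1.27e-05). ZcG (41.9 and 46.7 CPM) lay below cG, at -0.71 ± 0.16 (adjusted p = 0.00329), a call lost without Z replicate 2 (-0.54). Adding Z to S and cG together gave 37.1 and 38.1 CPM there, against 54.9 and 49.5 in ScG.

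At the Trim21 peak the interaction had the lowest p among the members for PL (-5.45 ± 0.92), PH (-4.34 ± 1.00) and PS (-4.90 ± 0.94), and these values rest on 1 control count. The PH call was lost with DESeq2 and without control replicate 2 (-3.37). The Trim30a peak 34998 bp from the start had an interaction of -1.33 ± 0.32 for PcG (adjusted p = 0.00481), lost without P replicate 1 (-1.07).

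Other interferon response genes are given for comparison. The 75 peaks at 12 such genes, among them Isg15, Ifit1 and Mx1, had 39 higher and 0 lower in L, 38 and 2 in S, 41 and 2 in cG, 20 and 0 in H, 14 and 0 in Z and 7 and 5 in P, with medians of 1.04, 1.02, 1.05, 0.64, 0.42 and -0.09. The antiviral TRIM peaks also had their lowest median in P, and their medians in L, S and cG were smaller. TRIM proteins with other symbols (Pml, Mid1, Mefv and Rnf135, 41 peaks) had 11 higher and 3 lower in L, 8 and 3 in cG, 7 and 7 in S and 4 and 3 in P.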

How the data were processed

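The submitters' processing notes name mm10, Bowtie2 2.2.9, MACS2 1.4, bedtools and featureCounts, with no role or order. The authors deposited raw counts per peak and library and the peak positions; whether duplicates or multi-mapping reads were removed, read ends shifted for transposase binding or libraries pooled for peak calling is not given in the sources used here. All 36 count columns were matched to titles, and 0 were left out. The mitochondrial peak was left out of library sizes and tests. Counts were filtered (filterByExpr, minimum count 10), TMM-scaled and fitted in edgeR 4.0.16 (R 4.3.3) by quasi-likelihood with a trended dispersion, 1 coefficient per group, all 36 libraries and 18 residual degrees of freedom. Each of 34 contrasts (17 against control, 9 without control, 8 pair interactions) was Benjamini-Hochberg adjusted over 119464 peaks. Standard errors are the log2 fold change divided by the square root of F. The fit was tested on simulated counts. CPM intervals and ratios cover counting error only, since amplified reads carry no molecular identifiers.

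The gene table is RefSeq's for GRCm38.p6. Named peaks are the start-site peak of each antiviral-list gene, the highest and lowest called peak per comparison (CPM of at least 1, groups not overlapping), the peak with the lowest p per interaction and the most often called peak of each other list; other peaks named were chosen after their values were seen. The result for 1 of the motifs searched is not reported here. Members and lists were chosen with earlier results of these data known. Replicate numbers did not pair the libraries: over 153 pairs of groups the correlation of same-numbered deviations was -0.0400 to 0.0300. Alternatives were DESeq2 1.42.0 (Wald), its size factors, total-count scaling, the mitochondrial peak kept, no filter, a replicate block, other windows (gene body, 20 kb) and each library left out.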

Additional observations from a re-analysis of the deposited data

Results flagged for a closer look

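By the edgeR interaction test, some TRIM-locus peaks answered one ligand of a pair unequally with and without its partner. The called members numbered 51 for ScG, 16 for LH, 13 for PL, 11 for ZS, 8 for ZcG, 7 for PS, 7 for PcG and 5 for PH. As shares of the 238 members these are 21.4% for ScG, against 14.4% of all peaks, 6.72% for LH (4.88% of all peaks), 5.46% for PL (6.75%), 4.62% for ZS (3.43%), 3.36% for ZcG (2.49%), 2.94% for PS (4.59%), 2.94% for PcG (3.27%) and 2.10% for PH (1.55%), so outside ScG the members lay within 2 percentage points of all peaks. All 8 use the same 2 control libraries. All except ZS carry the difference between high-share and low-share groups, with which the interaction cannot be told apart. ZS is not free of it, since its libraries had mitochondrial shares of 58.1% and 51.0%. Total-count scaling left 0 members above additivity in 6 pairs, 1 in ZS and 4 in ScG.

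The antiviral-list peaks, 71 of the 238 members, held 18 of the 30 members below additivity in ScG, 6 of 9 in ZS and 5 of 7 in LH. They held 4 of 6 in ZcG, 4 of 5 in PcG, 3 of 4 in PS, 3 of 4 in PL and 1 of 2 in PH. Whether this follows from the higher calls of the same list in the single ligands was not tested. The peak between Trim30c and Trim30a was called below additivity in LH, ScG, PS (-2.59), PcG (-2.62), ZS (-2.57) and ZcG (-2.81), and had values of -1.25 in PL and -1.87 in PH, which did not pass. Without control replicate 1 the values for PS (-1.69), PcG (-1.72), ZS (-1.67) and ZcG (-1.92) at that Trim30c peak were not called. The calls were also lost without P replicate 1 in PS (-1.92) and PcG (-1.95), and without Z replicate 1 in ZS (-2.41).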

How the results depend on the processing

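The share of TRIM-locus peaks called was recomputed for each of the 34 contrasts. DESeq2, its size factors, the mitochondrial peak kept, no filter, the gene-body window and the replicate block moved none of the 34 by over 1.5 times. With the replicate block the share in P was 18.9% and in cG 25.2%, as without it, and the numbers do not pair the libraries. Total-count scaling moved 6 pair interactions: PL from 5.46% to 10.9%, PH from 2.10% to 1.26%, LH from 6.72% to 11.8%, PS from 2.94% to 5.04%, PcG from 2.94% to 5.04% and ZcG from 3.36% to 9.66%. The 20 kb window moved S against cG from 0.42% to 0.235% and the PH interaction from 2.10% to 1.18%. Of 1050 values at named peaks, 944 kept direction and call, 105 kept direction and lost the call, and 1 reversed, the Trim26 start in L (0.16 with total counts).

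With 1 library left out, its group was fitted on a lone sample assumed to vary like the other groups. The share called against control was 10.5% to 16.4% in P, 17.2% to 17.6% in L, 6.3% to 9.66% in H, 18.1% to 22.3% in S, 16.4% to 20.2% in cG and 2.52% to 3.78% in Z. It was 15.1% to 21.8% in PL, 18.5% to 21.4% in PH, 18.1% to 20.6% in LH, 21.4% to 24.4% in PS, 23.5% to 27.3% in PcG, 16.0% to 20.2% in ScG, 13.9% to 21.4% in ZS and 9.24% to 13.4% in ZcG. The triplets had 19.7% to 23.9% (PLH), 28.6% to 31.1% (PScG) and 18.5% to 23.1% (ZScG). Against P the ranges were 7.14% to 13.4% in L, 3.36% to 7.56% in H, 13.9% to 20.6% in S, 18.5% to 23.9% in cG, 5.88% to 9.24% in PL, 0.84% to 5.04% in PH, 10.1% to 14.3% in PS and 9.24% to 14.7% in PcG, with 0.42% throughout for S against cG. Interactions ranged over 2.52% to 7.14% (PL), 0.42% to 2.94% (PH), 2.52% to 5.88% (LH), 0.84% to 3.78% (PS), 1.26% to 2.94% (PcG), 12.6% to 18.1% (ScG), 2.94% to 4.62% (ZS) and 1.68% to 4.2% (ZcG). Fewer libraries lower the number of calls by themselves. Peaks at or near 0 counts in control, as at Trim21, limit the precision of their fold changes.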

Other observations

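Several TRIM loci outside the comparisons above also moved. In the muscle-list gene Trim55, a peak 7443 bp from the nearer end of the gene had 0.328 and 0.482 CPM in control and 2.98 and 1.66 in P. Its log2 value was 2.48 (edgeR adjusted p = 0.0109), a call lost without either control library (2.24 and 2.78) or P replicate 1 (2.00). The same Trim55 peak had 0.239 and 0 CPM in cG, a log2 difference from P of -4.23 ± 0.89 (SE; adjusted p = 5.86e-05). All 3 peaks of Trim67 were called higher in at least 1 stimulation and none lower. Trim40, Trim54, Trim62 and Trim43c had peaks but no call in any of the 17 stimulations. Of all members, 72 were called higher in at least 1 stimulation, 93 lower and 3 both ways, these last at Trim69, Trim46 and Trim3. At the Trim69 peak 1849 bp from its start, control had 22.5 and 21.4 CPM, P 15.7 and 17.3 and L 26.1 and 30.1. Of the peaks called in 10 or more stimulations, 17 were higher, 12 of them at antiviral-list genes, and 25 lower, none of them there. With total counts those numbers were 32 higher with 20 antiviral, and 6 lower with none. The antiviral list holds 71 of the 238 members, and none of these counts over the stimulations was made over all tested peaks.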
